A study of Homo sapiens with 6 samples.

Results

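Stretches of at least 100 kb in which no nascent-strand peak was listed in any of 4 U2OS samples are described here as origin deserts. U2OS is a human osteosarcoma cell line. The peaks of the 4 deposited lists on chromosomes 1 to 22 and X were pooled and merged wherever they touched or overlapped, and each gap of 100 kb or more between neighbouring merged regions was taken as a desert. This gave 530 deserts among 534810 gaps, or 0.0991% of them. The rule reads the peak positions of all 4 lists, so the number, length and emptiness of the deserts are descriptions and were not tested.

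Nascent-strand sequencing (NS-seq) reads short, newly made DNA that lies around replication origins, after size selection and digestion of DNA that lacks an RNA primer. Both groups were U2OS cells transfected with siRNA, the control group with gl3 and the other with an siRNA against ORCA, with 2 nascent-strand samples in each. A genomic DNA sample of each group is listed too and was not analysed here. Nothing in the labels says that replicates came from separate cultures, so any p-value measures the spread between these samples only.

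Replication of a human chromosome starts at many sites, which are dense in early-replicating, gene-rich chromatin and sparse in late-replicating chromatin. A stretch with few origins must be copied by forks that enter from its sides, and such stretches are known for their sensitivity to replication stress. ORCA is encoded by LRWD1. It is a partner of the origin recognition complex, the protein complex that marks origins, and is known to sit at heterochromatin, including that around centromeres. T2T-CHM13, the build of these lists, carries the satellite arrays of the centromeres, the large satellite blocks of chromosomes 1, 9 and 16 and the short arms of the acrocentric chromosomes (13, 14, 15, 21 and 22). The sources used here do not say how reads that match many repeat copies were placed or filtered. An empty stretch of a repeat can thus lack origins or lack reads that could be assigned to it, and these cannot be told apart.

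On chromosomes 1 to 22 and X the lists held between 181132 and 329933 peaks, which covered between 58.5 and 86.1 Mb. The longest list was that of siORCA 1 and the shortest that of control 1. No list holds read counts, so the depth of each library is unknown, and the lists differ in length within each group.

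The deserts added up to 187 Mb, which is 6.12% of the length between the first and last peaks of the chromosomes. Over all gaps the median was 2240 bp and the 99th percentile was 41.0 kb. The median desert was 149 kb long, and the lower and upper quartiles were 116 and 291 kb. Of the 530, 350 were under 200 kb, 150 were between 200 kb and 1 Mb, and 30 were 1 Mb or longer. These 30 lay on 17 chromosomes and made up 40.3% of the length of all deserts. The number depends on how many lists can break a gap: with 1 sample left out it ran from 537 to 1065, the latter without siORCA 1 (869 without control 2). In stricter lists, which keep peaks whose −log10 q reaches 3, it was 1988. Near the threshold the lengths ran on without a break. The shortest members were 100045 bp on chromosome X, 100261 bp on chromosome 15 and 100366 bp on chromosome 9. The longest gaps that missed the threshold were 99931 bp on chromosome 1, 99752 bp on chromosome X and 99666 bp on chromosome 3.

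**Figure D1:**
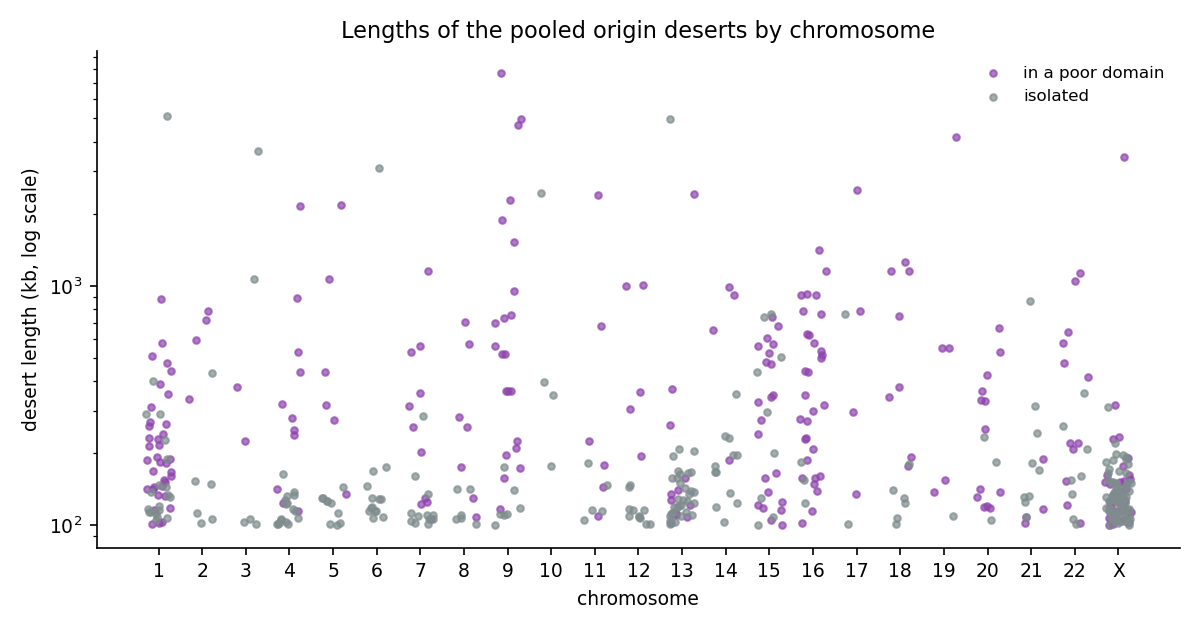
Length of each of the 530 deserts (log scale, kb) by chromosome, 1 point per desert, spread sideways for visibility. Purple points are deserts chained with a neighbour into a poor domain, grey points are isolated. Chromosome X holds a dense group between 100 and 200 kb, and chromosome 9 holds the longest desert, of 7.71 Mb.

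Chromosome 9 held the longest desert, from 63684575 to 71391725 (7.71 Mb). The desert from 58729575 to 63684455 (4.95 Mb) is its direct neighbour, and another desert, from 51614489 to 56290136 (4.68 Mb), belongs to the same stretch. They lie in the satellite block beside the centromere of this chromosome, as its general layout gives it; no annotation of the build was used. Chromosome 1 held a desert from 121613731 to 126727500 (5.11 Mb), which falls on its centromere. In the short arm of chromosome 13 a desert ran from 2547 to 4973214 (4.97 Mb). The others among the 10 longest fall at centromeres. They lay on chromosome 19 from 25237904 to 29433411 (4196 kb), chromosome 3 from 91704037 to 95366387 (3.66 Mb), chromosome X from 57691445 to 61131347 (3.44 Mb), chromosome 6 from 58240360 to 61351073 (3.11 Mb) and chromosome 17 from 24214269 to 26731594 (2.52 Mb). Together these 10 made up 23.7% of all desert length.

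Each of the 23 chromosomes held at least 4 deserts. The longest desert of a chromosome ranged from 668 kb on chromosome 20 to the 7.71 Mb on chromosome 9. On chromosomes 2, 8, 14, 15, 20 and 21 no desert reached 1 Mb. On chromosome 8 the longest ran from 45115250 to 45820797 (706 kb), and on chromosome 2 from 93910096 to 94698055 (788 kb). On chromosome 21 it lay near the start of the short arm, from 1103676 to 1967190 (864 kb).

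Deserts were most frequent on chromosome X, with 101 of the 530 (19.1%). This is 65.5 deserts per 100 Mb, against 14.8 over the autosomes together. Next came chromosomes 13 (39.6 per 100 Mb), 22 (39.0) and 16 (35.3). Chromosomes 10 (2.97), 3 (3.48) and 2 (4.12) had the fewest. By length the order differed: deserts took up 20.5% of chromosome 9, 15.5% of chromosome 16, 13.2% of chromosome 22, 11.9% of chromosome 13 and 11.2% of chromosome X. Chromosomes 1, 9 and 16 together held 120 deserts and 33.7% of all desert length.

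The deserts of chromosome X were short. Apart from the centromeric one, the longest was 316 kb, from 33098800 to 33415208, and 95 of the 101 were under 200 kb. Of the 276 isolated deserts of the genome, 73 (26.4%) lay on this chromosome. This depends on the setting. Where only regions in at least 2 lists bounded a gap, chromosome X held 9.96% of all deserts and 72 of 1866 isolated ones. At a minimum gap of 200 kb it held 3.33% of the deserts. In the other settings its share of all deserts ran from 16.1% (stricter lists) to 23.8% (without siORCA 1). Chromosome X spans 5.05% of the length studied. It held 1.23% of the covered length of control 1, 1.48% of control 2, 1.62% of siORCA 1 and 0.950% of siORCA 2. All 4 lists were thus sparse there, siORCA 2 the most. The DNA copy number of chromosome X in these cells was not measured here, and its part in the number of deserts was not tested.

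Where 2 neighbouring deserts lay at most 50 kb apart they were joined into a poor domain. This placed 254 deserts in 74 poor domains on 21 chromosomes and left 276 isolated. Chained deserts had a median of 239 kb and held 66.8% of the desert length, and isolated ones had a median of 127 kb. Of the domains, 44 were pairs of deserts, 13 held 5 or more, and 29 spanned 1 Mb or more. Chromosome X had 13 domains and chromosome 1 had 12, whereas chromosomes 6 and 10 had none.

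The domain with the most deserts, 16, was on chromosome 9 from 48881603 to 75631075, a span of 26.7 Mb of which deserts took up 99.7%. The next, with 13, was on chromosome 16 from 41786954 to 49995580 (8.21 Mb), again in the satellite block beside the centromere. A domain of 12 deserts lay in the short arm of chromosome 15 from 9475857 to 14081753 (4.61 Mb). Chromosome 16 had another, of 8 deserts, from 50084939 to 52223187 (2.14 Mb), and chromosome 7 had one of 7 at its centromere from 60033725 to 62315306 (2.28 Mb). The 5 longest by span also included a domain on chromosome 19 from 24394509 to 29982665 (5.59 Mb, 5 deserts) and one on chromosome 5 from 46486637 to 50464277 (3.98 Mb, 4 deserts).

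The deserts of a domain were parted by few peaks, most of them listed once. All 74 domains together held 252 merged regions between their deserts. Of these 191 (75.8%) were in 1 list only and 12 (4.76%) in all 4. Over the genome, 60.1% of the 534833 merged regions were in 1 list and 10.7% in all 4. Among the merged regions on either side of gaps of 50 to 100 kb these shares were 81.0% and 2.16%. The trait is thus not particular to poor domains.

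On chromosome 9 the 16 deserts were parted by 17 regions in 26.7 Mb, with a median width of 120 bp, and each was in 1 list only. Control 2 held 11 of them, siORCA 1 held 5, control 1 held 1 and siORCA 2 held 0. The authors' fold enrichment of these peaks, a linear ratio over the caller's background, ran from 3.08 to 3.98. The 119 bp from 63684456 to 63684574 that part the longest desert from its neighbour were listed in siORCA 1 alone, at 3.36-fold. On its other side, the 159 bp from 71391726 to 71391884 were listed in control 2 alone, at 3.98-fold.

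On chromosome 16, 15 regions parted the 13 deserts of the larger domain. Control 1 held 11 of them, control 2 held 8, siORCA 2 held 3 and siORCA 1, the longest list, held 0. The strongest, from 47751896 to 47752116, stood at 5.20-fold in control 1, 9.50-fold in control 2 and 9.75-fold in siORCA 2. In the short arm of chromosome 15, 23 regions parted 12 deserts, and control 2 held 18, siORCA 1 held 8, control 1 held 2 and siORCA 2 held 0. Of the 23, 11 lay close together near the end of that domain, between 13921687 and 13963973, the widest of 1050 bp from 13940816 to 13941865 in siORCA 1 alone.

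Of the 12 inner regions that all 4 lists shared, 6 lay on chromosome 1 between 131 and 139 Mb, in or beside its large satellite block, and were 155 to 298 bp wide. One of them, from 134879609 to 134879763, stood at 9.32-fold in control 1, 7.17-fold in control 2, 6.08-fold in siORCA 1 and 8.25-fold in siORCA 2. Another, from 138113715 to 138113986, stood at 8.02, 9.86, 4.42 and 8.89-fold in the same order. On chromosome 16 a region of 241 bp from 50860432 to 50860672 stood at 10.9, 9.34, 5.24 and 9.59-fold. In all 7 of these satellite sites siORCA 1 had the lowest fold of the 4 lists, and siORCA 2 lay between or above the controls, so the groups overlapped at each. The highest fold inside any domain, 17.0-fold, was in siORCA 1 on chromosome 5 from 50008778 to 50009500, where the others stood at 3.95, 7.17 and 8.42-fold. Each list has its own unknown depth, so folds of different lists are set side by side and not tested.

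The other shared inner regions lay on chromosome 5 from 50006277 to 50007416, on chromosome 22 from 6668049 to 6668526 and from 6698866 to 6699315, and on chromosome X from 82832830 to 82833327. On chromosome X the region was covered over 470 and 466 bp in controls 1 and 2 and 140 and 358 bp in siORCA 1 and 2.

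Among the 252 regions between chained deserts, 141 were in control samples only, 60 in siORCA samples only and 51 in both. Over all 534833 merged regions, 150529 were in control samples only and 208862 in siORCA samples only. Among the 5174 borders of gaps of 50 to 100 kb these numbers were 2240 and 2162. Of the 252 regions, control 1 held 72, control 2 held 151, siORCA 1 held 55 and siORCA 2 held 74. Control 1 and siORCA 2 were thus nearly equal. As a share of all covered length in the list this was 0.0228% and 0.0393% in controls 1 and 2 and 0.0114% and 0.0173% in siORCA 1 and 2. On this scale both siORCA samples lay below both controls, at a mean of 0.0310 ± 0.0117% against 0.0144 ± 0.00419% (control, then siORCA; SD over 2 samples each). It is a score over members chosen from the same lists, so no p is given, and the measure was chosen after its values were seen. With deserts and domains found anew, the difference of −0.0167 percentage points was −0.0338 without control 1 and −0.0404 without siORCA 1. It was −0.0153 without control 2 and −0.0200 without siORCA 2. With deserts joined over at most 10 kb it was −0.00871. In the stricter lists, again with new domains, the shares were 0.130%, 0.178%, 0.153% and 0.0895% in the same order and the groups overlapped.

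The 530 deserts had 920 border regions, the merged regions on either side. Their median width was 139.5 bp, against 202 bp for all merged regions. In 720 of the 920 (78.3%) the border was a peak of 1 list only, and 39 (4.24%) were shared by all 4. A border with at least 10-fold enrichment in any list was found in 1.96% of cases, against 5.91% of all merged regions. The borders of gaps of 50 to 100 kb were alike in this, with 81.0% in 1 list only and a median width of 150 bp, so these traits are not particular to deserts.

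Control 1 covered 25.2% of the borders, control 2 covered 46.8%, siORCA 1 covered 42.2% and siORCA 2 covered 184 of the 920. The groups overlapped, at 36.0 ± 15.3% in control and 31.1 ± 15.7% in siORCA (SD over 2 samples each). Over all merged regions the shares were 33.2%, 43.0%, 59.9% and 36.3% in the same order. Control 2 covered a larger share of borders than of all regions, and the other samples a smaller one. The group difference of −4.95 percentage points was −27.8 without siORCA 1 and 10.1 without control 2, and 21.3 in the stricter lists.

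Isolated and chained deserts had different orders of samples. At the borders of isolated deserts, siORCA 1 covered the largest share (51.8%), followed by control 2 (40.0%), control 1 (21.4%) and siORCA 2 (13.4%). By covered length the order of the lists was siORCA 1, control 2, siORCA 2 and control 1. At the borders of chained deserts the order was control 2 (57.1%), control 1 (31.0%), siORCA 2 (29.9%) and siORCA 1 (27.7%). These last 3 lay close together. Both kinds of desert were defined from the same pooled lists, and the difference between them was not tested.

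**Figure D2:**
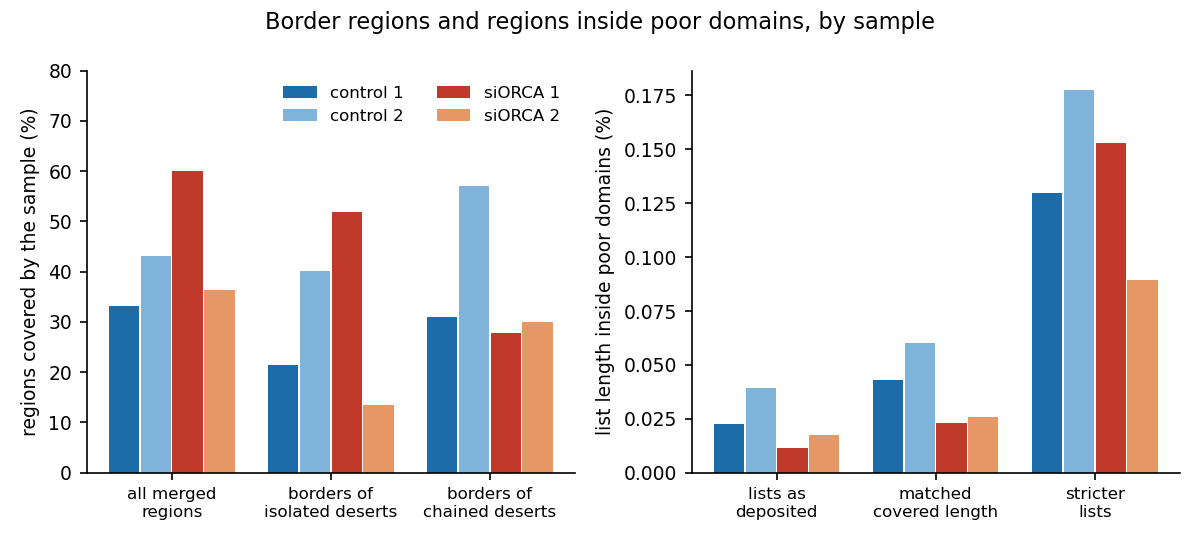
Left, percent of merged regions covered by each sample, for all merged regions and for the borders of isolated and of chained deserts. Right, percent of each list's covered length that lies inside poor domains, for the lists as deposited, lists of matched covered length and stricter lists; bars are single samples. The siORCA 1 bar is the highest for isolated borders (51.8%) and the lowest for chained ones (27.7%).

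The 10 longest deserts had borders from 3.00-fold to 9.66-fold, many of them peaks of 1 list. At the borders of the chromosome 1 desert of 5.11 Mb stood a 154 bp peak of control 2 at 4.27-fold and a 277 bp peak of siORCA 1 at 5.999-fold. On chromosome 6, the left border of the 3.11 Mb desert was 319 bp wide and was listed in control 2 at 3.70-fold and in siORCA 2 at 3.40-fold, and the right border was a 157 bp peak of control 1 at 3.45-fold. On chromosome 19, the longest desert had a 252 bp peak of control 2 at 3.88-fold on its left and a 135 bp peak of control 1 at 3.06-fold on its right. On chromosome 17, the left border was in 3 lists, at 6.75-fold in control 2, 4.05-fold in siORCA 1 and 8.40-fold in siORCA 2, and the right one was a 96 bp peak of control 2 at 3.00-fold.

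The desert in the short arm of chromosome 13 had the strongest border of the 10. Its left border, 2544 bp wide, reaches the end of the chromosome and was in all 4 lists, at 5.79-fold in control 1, 9.66-fold in control 2, 6.95-fold in siORCA 1 and 8.02-fold in siORCA 2. Its right border was a 108 bp peak of siORCA 1 alone, at 3.82-fold. The left border of the chromosome 3 desert was shared by control 1 (7.01-fold), control 2 (4.06-fold) and siORCA 2 (4.98-fold). The right border on chromosome X was shared by control 2 (3.72-fold), siORCA 1 (3.49-fold) and siORCA 2 (4.47-fold).

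Many weak peaks of a list carry exactly the same fold. In control 2 the most common value, 3.28-fold, was carried by 2.23% of all its peaks. The same value was carried by 10.7% of the 431 border regions that control 2 covered and 11.3% of its 151 regions inside domains. Shares for the other samples are likewise of the regions that each sample covered. In control 1 the most common value (3.06-fold) was carried by 1.71% of peaks, 4.74% of borders and 2.78% of inner regions. In siORCA 1 (3.30-fold) it was carried by 1.29% of peaks, 5.41% of borders and 10.9% of inner regions. In siORCA 2 (3.46-fold) it was carried by 0.662% of peaks, 0.543% of borders and 1.35% of inner regions. Identical low values thus occurred more often beside deserts than in the whole list in 3 of the 4 samples.

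Each desert lies inside an empty stretch of every sample, its own-list gap, which is as long as the desert or longer, because pooling can only shorten gaps. The median own-list gap around the 530 deserts was 387 and 230.1 kb in controls 1 and 2 and 263 and 572 kb in siORCA 1 and 2. Relative to the desert inside, the medians were 2.21 and 1.22 times its length in controls 1 and 2 and 1.55 and 2.91 times in siORCA 1 and 2. An own-list gap of exactly the desert's length, to the base, was found in at least 1 sample for 198 deserts and in all 4 for none (0 of 530). For isolated deserts the medians of this ratio were 1.86, 1.25, 1.18 and 2.93 in the same order. For chained deserts they were 2.88, 1.17, 3.42 and 2.82, so that siORCA 1 went from the shortest to the longest own-list gaps of the 4.

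**Figure D3:**
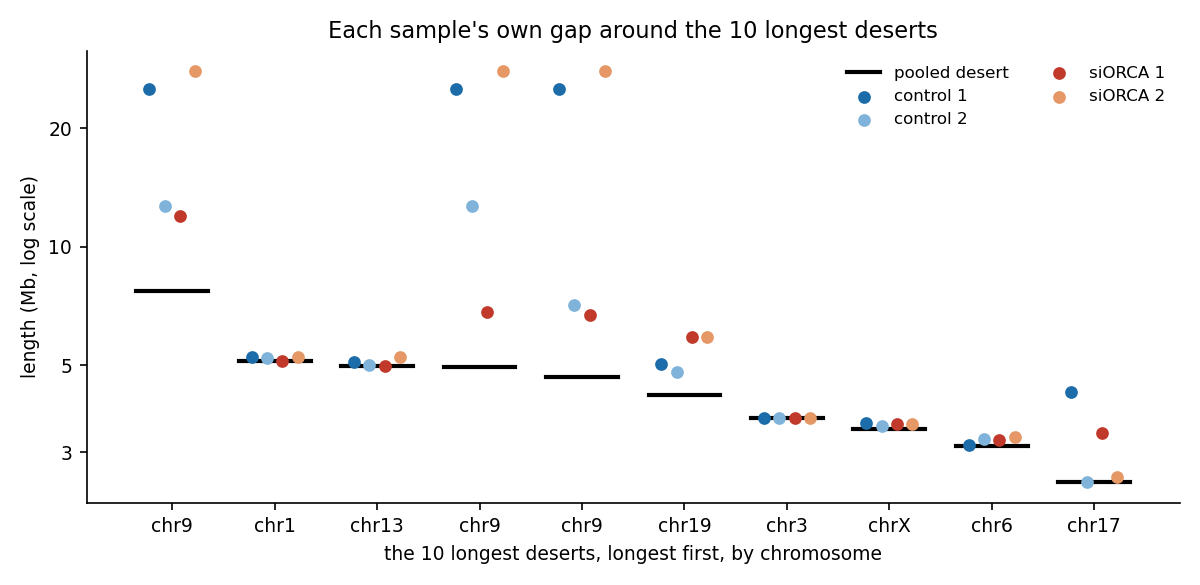
The 10 longest deserts (black bars, Mb, log scale), named by chromosome, with the own-list gap of each of the 4 samples around them (points). On chromosomes 1, 13, 3, X and 6 all points sit on or just above the bar, and on chromosome 9 they spread from 6.72 to 27.9 Mb.

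In 40 of the 530 deserts no own-list gap exceeded the desert by more than 1.5 times, which for the longest still allows edges over 1 Mb apart. These 40 lay on 17 chromosomes, included 10 of the 30 deserts of 1 Mb or more, and held 20.8% of the desert length. In the satellite block of chromosome 1, both borders of the desert from 140355598 to 140503100 were in all 4 lists, and its own-list gap was 147.5 kb in each sample. On chromosome 3 the own-list gaps were 3662 and 3667 kb in controls 1 and 2 and 3667 and 3675 kb in siORCA 1 and 2, against 3662 kb for the desert. On chromosome 1 they were 5234, 5211, 5124 and 5244 kb around the centromeric desert of 5114 kb. On chromosome X they were 3559, 3502, 3540 and 3541 kb around 3440 kb. The groups overlapped on chromosomes 1 and X, and on chromosome 3 siORCA 1 and control 2 differed by less than 1 kb.

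At the chromosome 13 short arm the own-list gaps were 5079, 4989, 4971 and 5231 kb in the order control 1, control 2, siORCA 1, siORCA 2. On chromosome 21 from 1103676 to 1967190 they were 1222, 876, 864 and 864 kb, with both siORCA samples below the controls. At the centromere of chromosome 19 the reverse held, with 5039 and 4799 kb in the controls and 5897 and 5898 kb in the siORCA samples. On chromosome 10 from 39525683 to 41968446, a centromeric desert of 2443 kb, they were 2941, 2443, 2694 and 2694 kb. Both siORCA samples lay between the controls there.

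On chromosomes 9 and 17 own-list gaps spread widely. Around the longest desert, on chromosome 9, the own-list gap was 25.2 and 12.7 Mb in controls 1 and 2 and 11.9 and 27.9 Mb in siORCA 1 and 2. These were also the longest gaps of the whole list in all 4 samples, and they held 13, 2, 7 and 18 pooled deserts. The groups overlapped, with control 1 beside siORCA 2 and control 2 beside siORCA 1. On chromosome 17, own-list gaps ran from 2517 kb in control 2 to 4266 kb in control 1, with 3363 kb in siORCA 1 and 2599 kb in siORCA 2.

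In 99 of the 530 deserts (18.7%) both siORCA own-list gaps were longer than both control ones, and in 16 (3.02%) both were shorter. Over all 534810 pooled gaps, 8.53% had both siORCA gaps longer and 23.2% had both shorter. Gaps of 50 to 100 kb stood between, at 12.3% and 8.95%. The shares thus moved with gap length. Deserts that share an own-list gap are not independent. Of the 99, 62 were chained and 37 isolated. With lists of matched covered length the shares were 27.4% longer and 2.39% shorter among 878 deserts, over a background of 18.1% and 16.7%. In the stricter lists both siORCA samples kept more peaks than both controls. The shares there were 3.12% longer and 23.5% shorter among 1988 deserts, over a background of 1.82% and 42.9%. The direction within deserts therefore reversed with the stricter lists, whereas in each of these settings deserts leaned further to longer siORCA gaps than all gaps did.

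Peaks were thinly spread beside deserts as well. With the border regions left out, the first 100 kb beyond desert edges had 0.230 times the genome-wide peak density in control 1, 0.333 times in control 2, 0.307 times in siORCA 1 and 0.154 times in siORCA 2. In absolute terms 0.441%, 0.731%, 0.867% and 0.322% of these flanks was covered, against 1.91%, 2.19%, 2.82% and 2.10% of the genome. The group means were 0.282 ± 0.0729 in control and 0.231 ± 0.109 in siORCA (SD over 2 samples each), and the groups overlapped. The difference of −0.0512 was −0.133 without siORCA 1, −0.103 without control 1, −0.0055 without control 2 and 0.0226 without siORCA 2. The density rose slowly with distance. Between 400 and 500 kb from an edge it was 0.465, 0.539, 0.553 and 0.401 of the genome-wide level in the same order, still below 1 in each sample.

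**Figure D4:**
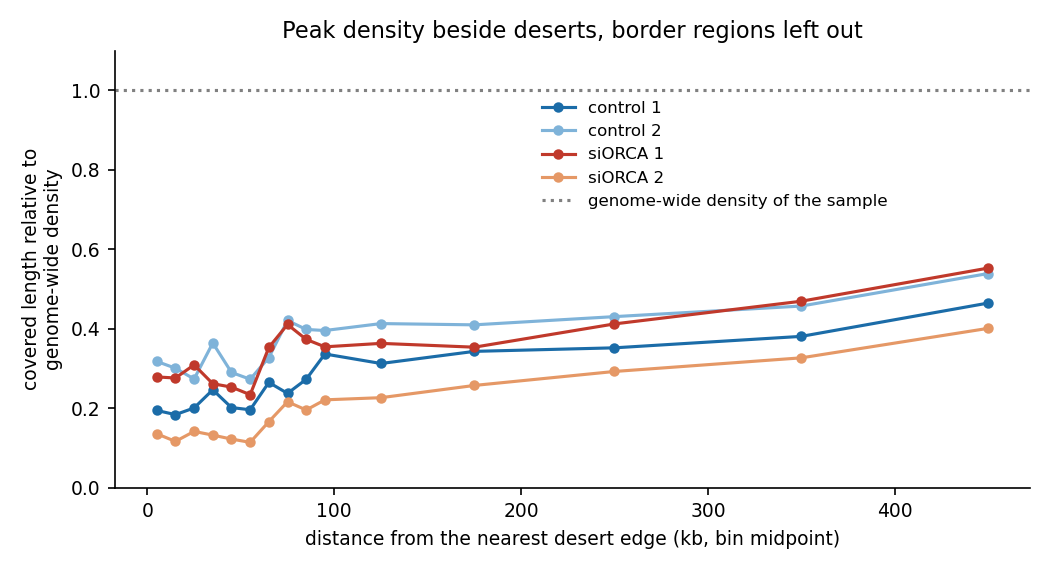
Covered length relative to each sample's genome-wide density (y, ratio) against distance from the nearest desert edge (x, kb), 1 line per sample, border regions and deserts left out. Every sample stays below its genome-wide density (dotted line at 1) out to 500 kb, and siORCA 2 is the lowest in each bin.

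Whether siORCA changed peak density around deserts was asked in 1 Mb windows, with limma over 2460 windows that had a mean of at least 5 kb covered. Of 384 windows with at least 100 kb of desert, 90 passed this filter. The other windows were left out by this filter, so the main test speaks of desert edges and not of the emptiest stretches. With no filter, limma called 0 of the 384 desert windows, and 2 higher and 0 lower of all 3069. Of the 384, 9 had an unadjusted p under 0.05 in limma, against 92 of the 3069. With the filter, no desert window was called (0 higher and 0 lower in siORCA by limma at an adjusted p of 0.05). Of the 90, 2 had an unadjusted p under 0.05 in limma, against 76 of the 2460. Over all windows that passed the filter limma called 0.0813% as higher and 0% as lower. The median log2 difference (siORCA minus control, of covered length plus 1000 bp over the list's total) was −0.14 in desert windows and −0.09 in all windows tested. Without the filter these medians were −0.32 and −0.16. Both siORCA shares lay below both control shares in 18 of the 90 windows and above in 6, against 17.4% and 11.3% of all 2460 windows.

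The desert windows with the smallest p were on chromosome 22 from 8 Mb (log2 difference −1.35, SE 0.58), chromosome 3 from 156 Mb (−0.99, SE 0.49) and chromosome 13 from 52 Mb (−0.74, SE 0.38). Above control, they were on chromosome 2 from 91 Mb (0.51, SE 0.28) and from 92 Mb (0.62, SE 0.43), and on chromosome 7 from 58 Mb (0.46, SE 0.40). In limma the adjusted p was 0.930 for each of the 6. On chromosome 2 from 91 Mb peaks covered 11.1 and 12.1 kb in controls 1 and 2 and 21.4 and 19.3 kb in siORCA 1 and 2. Both siORCA samples were higher there, also as a share of their lists.

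In the window on chromosome 22 from 8 Mb, on the short arm, peaks covered 5.09 and 27.7 kb in controls 1 and 2 and 30.4 and 0.209 kb in siORCA 1 and 2. The samples of each group thus lay at opposite ends. Without siORCA 1, which leaves 1 siORCA sample, limma called 6 of 82 desert windows as lower and 0 as higher, where it called 2.13% of all 2347 windows as lower and 0.767% as higher. The 6 lay on chromosomes 13 (from 10 Mb), 15 (from 0 and 15 Mb), 21 (from 0 Mb) and 22 (from 7 and 8 Mb). By the general layout of these acrocentric chromosomes all 6 lie on short arms. In the window on chromosome 22 from 8 Mb the log2 difference was then −3.48 (adjusted p = 2.62e-06, limma). The lone siORCA sample is assumed there to vary like the controls, which themselves held 5.09 and 27.7 kb. Without siORCA 2 that window turned to 0.79. The call thus rests on siORCA 2.

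In its own list each sample had more long gaps than the pool. Gaps of 100 kb or more numbered 4066 and 2387 in controls 1 and 2 and 1462 and 4169 in siORCA 1 and 2. They added up to 809 Mb, 469 Mb, 348 Mb and 957 Mb. Control 1 and siORCA 2, the shortest lists, were nearly equal in number but not in length, and the groups overlapped in both. The mean number was 3226.5 ± 1187 in control and 2815.5 ± 1914 in siORCA (SD, 2 samples in each group), with p = 1.0 by a two-sided exact permutation test. The mean length was 639 ± 240.4 Mb and 653 ± 431 Mb, again with p = 1.0 by the exact test. With 2 samples against 2 no p under 0.33 can be had.

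Where all lists were shortened to the covered length of control 1, the numbers drew closer, at 4066, 3335, 3870 and 4547 gaps. With the same number of peaks in each list they were 4066, 3667, 4157 and 4457. The siORCA samples then lay above both controls, by 440.5 gaps on average (exact permutation test p = 0.333, the lowest possible). In the stricter lists the numbers were 7116, 6674, 3327 and 5975, with both siORCA samples below both controls. This cut left 64989 and 97853 peaks in controls 1 and 2 and 213149 and 112779 in siORCA 1 and 2. Both siORCA lists were thus longer than both control lists, and the number of gaps fell as the number of peaks rose. The mean difference there was −2244 gaps (exact permutation test, p = 0.333), so the direction depended on how the lists were cut. In the full lists the difference was 428.5 without control 1, −1250.5 without control 2, 942.5 without siORCA 1 and −1764.5 without siORCA 2. Its direction thus turned with the sample left out, in either group.

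Very long gaps were most frequent in siORCA 2. Gaps of 1 Mb or more numbered 40 and 39 in controls 1 and 2 and 39 and 58 in siORCA 1 and 2. The median of all gaps was 5733 and 5118 bp in controls 1 and 2 and 3393 and 4454 bp in siORCA 1 and 2. Both siORCA samples lay below both controls in this (exact permutation test, p = 0.333). siORCA 2 thus had both a shorter median gap than the controls and the most long gaps.

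**Figure D5:**
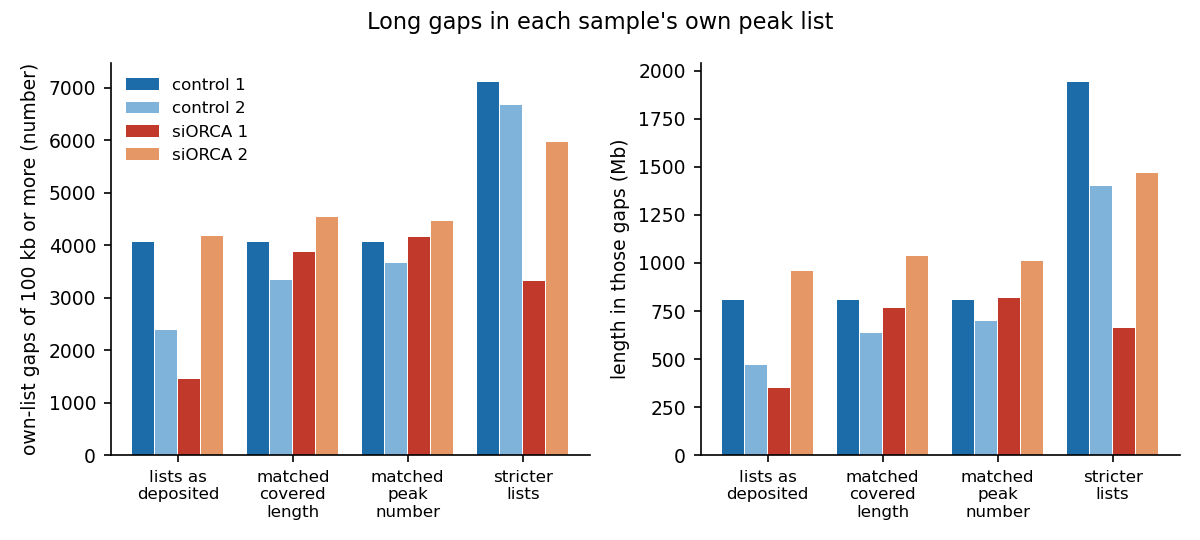
Number of gaps of 100 kb or more in each sample's own list (left) and their summed length in Mb (right), for the lists as deposited, lists of matched covered length, lists of matched peak number and stricter lists. Bars are single samples. The span from 1462 to 4169 gaps in the deposited lists narrows to 3667 to 4457 at a matched number of peaks.

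Long own-list gaps of at least 1 sample took up 1218 Mb, or 39.9% of the length studied. Of this, 219.8 Mb lay in such gaps of all 4 samples, and pooled deserts made up 85.0% of that common part. The largest set shared by only 2 samples was that of control 1 and siORCA 2, at 228 Mb. Both controls but neither siORCA sample shared 25.4 Mb, and both siORCA samples but neither control shared 24.7 Mb. Of the other pairs across groups, control 2 and siORCA 2 shared 52.6 Mb, control 1 and siORCA 1 shared 9.93 Mb and control 2 and siORCA 1 shared 3.31 Mb. The pairs within groups thus lay between the pairs across groups.

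Chromosome X was emptiest in every list. Own-list gaps of 100 kb or more took up 70.1% and 43.7% of it in controls 1 and 2 and 28.7% and 78.8% in siORCA 1 and 2. On chromosome 13 they took up 47.9%, 30.3%, 22.1% and 62.4%, and on chromosome 4 37.9%, 17.6%, 13.9% and 44.95%, in the same order. On chromosome 16, where deserts lie in the satellite block, the values were close, at 20.7%, 17.8%, 17.2% and 22.4%. On each of these chromosomes siORCA 2 was the highest and siORCA 1 the lowest, so that both controls lay between the siORCA samples.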

How the data were processed

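NS-seq peak lists of 4 samples were used; the 2 genomic DNA samples were not analysed here. The tools named for the reads are BWA, SAMtools and MACS2, and the build is T2T-CHM13, per the submitters' processing notes; versions and settings are not given in the sources used here. Peaks were deposited per sample, with positions, a score, a fold enrichment (linear ratio), and −log10 p and −log10 q values by the authors. The lists hold no counts and depth is unknown.

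Peaks on chromosomes 1 to 22 and X were merged, and gaps, borders, domains and flanks were computed with Python 3.11.15, numpy 2.4.6 and pandas 2.3.3. Flanks were summed in bins of 100 bp. Windows of 1 Mb were compared with limma 3.58.1 in R 4.3.3 (lmFit, eBayes with trend, Benjamini-Hochberg) on log2(covered bp + 1000) minus log2 of the list's total. Tested on simulated data for this comparison (2460 windows), limma found 18% of true changes at a log2 size of 0.5 and 94% at a size of 1, and 7 of its 163 calls were false. The simulation gave every window the same spread, the median over all windows, and drew the samples independently. These rates therefore need not hold for desert windows, and they do not show what the lack of calls there could have missed. Stricter lists keep peaks whose −log10 q reaches 3. For equal covered length or equal peak number, the weakest peaks by −log10 p were dropped. Other alternatives were minimum gaps of 50 and 200 kb, regions in at least 2 lists, windows without the filter and each sample left out. Named regions are the 10 longest deserts and their borders, the longest of a chromosome, the 5 domains with most deserts and the 5 longest, the regions inside the top 3, lengths beside the threshold, and the 3 desert windows each way with the smallest p. Others (shared inner regions, deserts within 1.5 times in all samples, windows called without siORCA 1) were chosen after their values were seen. The members and lists were chosen with earlier results of these data known. No gene annotation or sequence of the build was used.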

Additional observations from a re-analysis of the deposited data

How the results depend on the processing

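The number of deserts depends on which peaks may bound a gap. It was 1988 with stricter lists, 878 with matched covered length, 3894 when only regions in at least 2 lists bound a gap, 3200 at a minimum of 50 kb and 180 at 200 kb, and ran from 537 to 1065 with 1 sample left out (869 without control 2, 1065 without siORCA 1). Poor domains numbered 276, 684, 488 and 33 with stricter lists, regions in at least 2 lists, 50 kb and 200 kb, and 74 to 139 with 1 sample left out. The difference in own-list gaps (siORCA minus control, −411 in the deposited lists) was −2244 with stricter lists and −1945.5 at a minimum of 50 kb. For these gaps it was 508 with matched covered length, 440.5 with matched peak number and 97 at 200 kb. It ran from −1764.5 to 942.5 with 1 sample left out for the number of these gaps. The difference in their length (13.7 Mb) was −604.7 Mb with stricter lists and −92.2 Mb at 50 kb, and ran from −291 to 318 Mb with 1 sample left out. The difference in the share of borders (−4.95 percentage points) was 21.3 with stricter lists and ran from −27.8 to 10.1 with 1 sample left out. The difference in list length inside domains (−0.0167 percentage points) was −0.0324 with stricter lists and −0.0272 with matched covered length. It was −0.00871 with deserts joined over 10 kb and −0.0382 over 200 kb, and ran from −0.0404 to −0.0153 with 1 sample left out. Deserts with both siORCA own-list gaps longer numbered 62 with stricter lists and 241 with matched covered length. These last 2 measures and their alternatives were chosen after seeing the data. The cause of these changes was not tested, beyond the fewer peaks or samples that each setting leaves. The difference in flank density (−0.0512) ran from −0.133 to 0.0226 over 9 settings, both ends from leaving out a siORCA sample. With 1 sample left out, the log2 difference ran from −0.019 (without control 2) to 0.93 in the window on chromosome 7 from 58 Mb and from −3.48 (without siORCA 1) to 0.79 (without siORCA 2) in that on chromosome 22 from 8 Mb. Desert windows called numbered 6 without siORCA 1, where limma called 50 lower and 18 higher of 2347 windows in all, and 0 in the other planned settings.

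With the replicate number as a block (replicate block), the mean difference within pairs was −411 gaps, from −2604 and 1782 in the pairs (exact sign-flip test, p = 1.0), and limma called 0 desert windows. Deviations of control 1 and siORCA 1 from their group means correlated at −0.457 over 2460 windows, and a crossed block, added after seeing the data, called 1 desert window as lower, on chromosome 22 from 8 Mb, of 3 higher and 1 lower among all 2460.

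The lists hold no read counts, so what depth limits could not be computed, and 2 samples a group limit every test.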
